A study of Mus musculus with 6 samples.

Results

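Cassette exons of up to 60 nt were described in mouse brain RNA, measured on arrays that carry separate probe sets for the inclusion and the exclusion path of an alternative event. Members were the distinct event names that the deposited table annotates as cassette exons and that end in 1 length of at most 60 nt. The rule used length and no measured value. It gave 760 exons in 686 genes, which were 20.3% of the 3751 cassette exons with 1 length and 5.85% of all 13002 events. A further 26 cassette events had no single length in their name and were not counted. All members had intensities except the 34-nt exon of *Ern1*, so 759 are described.

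Each of 6 animals gave 1 array. All belonged to a congenic stock in which a segment of chromosome 19 from CAST mice was bred onto the B6 background. Group Nxf1_B6 held 3 mice homozygous for the B6 allele of *Nxf1*, an mRNA export factor, and group Nxf1_CAST held 3 mice homozygous for the CAST allele. They formed 3 same-sex littermate pairs of opposite genotype, of which 2 were female and 1 was male. Within pairs the Nxf1_B6 and Nxf1_CAST animals were both 46 days old in the first, 22 and 23 days in the second, and both 23 days in the third. Genes linked to *Nxf1* within the CAST segment differ between the groups as well, so their alleles and that of *Nxf1* cannot be told apart in this stock.

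The table lists whole-number intensities for a set A and a set B, each pooled by the authors over the arrays of its set. It does not name the sets by genotype. Its header defines the separation score as mutant over wild type and the Methods define it as CAST over B6, so set B was likely Nxf1_CAST and set A likely Nxf1_B6. No value per animal was used, so animal-to-animal error is unknown and no exon was tested. Precision is limited by the number of arrays, and every difference below describes this single pair of pooled sets.

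Short exons are a particular class of splicing event. Their small size leaves little room for the sequences that mark an exon, and many depend on neighbouring intronic elements and on neuronal splicing factors to be recognized. In brain, many short exons keep the reading frame and add a few amino acids to proteins of synapses, membrane traffic, cell adhesion and the cytoskeleton. The shortest, called microexons, are known for inclusion in neurons through the splicing factor Srrm4.

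An example of how such an exon can be assayed is the 27-nt exon of *Daam1*, a formin that builds actin filaments. The event lies at chr12:73053546-73060792 on the plus strand, in the coordinates of the table, which does not name its genome assembly. The study listed this pair of primers for its gel assay of a *Daam1* cassette exon. Whether they flank this 27-nt event was not checked against a genome sequence. They are shown because products with and without an exon can be separated by size.
Daam1 primer 1: tctgcctaccaaagacagca
Daam1 primer 2: aattctgagctctccgacca
On the arrays, the exclusion path of *Daam1* read 226 (set A) and 216 (set B), and the inclusion path 294 and 277. Inclusion thus made up 56.5% of the summed intensity in set A and 56.2% in set B. This value, the inclusion share, is a share of brightness and not of molecules. Probe sets differ in affinity, so shares of different exons can be ordered only as brightness, whereas the same exon can be set side by side in both sets.

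Exon lengths ran from 12 to 60 nt with a median of 46 nt. Few were very short, with 6 under 27 nt and 46 of exactly 27 nt. Lengths divisible by 3, which add or remove whole codons, were common. They were found in 496 of the 760 exons (65.3%), against 50.8% of cassette exons of 61 to 150 nt and 48.2% of those over 150 nt. By length, 94.2% of exons of 12 to 27 nt were multiples of 3, then 74.1% from 28 to 39 nt, 59.04% from 40 to 51 nt and 58.5% from 52 to 60 nt. Neighbouring lengths showed the same alternation up to the limit itself, with 20 exons of 59 nt, 51 of 60 nt, 18 of 61 nt and 50 of 63 nt. These counts describe what the array was designed to measure, and exons absent from it are not covered.

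**Figure D1:**
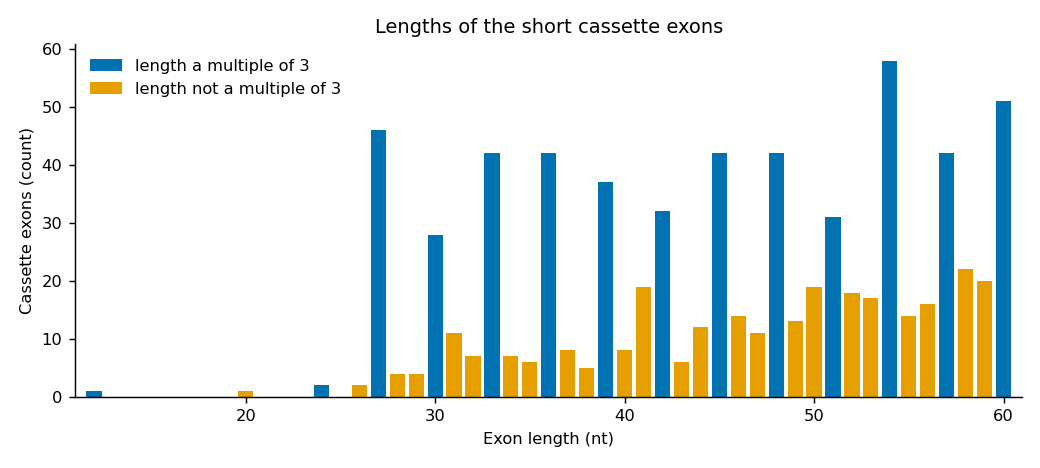
Number of short cassette exons (vertical axis) at each exon length in nt (horizontal axis), with lengths that are a multiple of 3 in blue and other lengths in orange. Blue bars stand above their orange neighbours over the whole range from 27 to 60 nt, and 46 exons are exactly 27 nt long.

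Inclusion in brain covered nearly the whole scale. The median inclusion share was 58.8% in set A (quartiles 39.7% and 75.7%) and 58.6% in set B (quartiles 38.5% and 74.5%). In longer cassette exons it was 61.9% and 61.1% for 61 to 150 nt, and 61.5% and 61.1% over 150 nt. Just inside the length limit, exons of 60 nt had a median share of 51.1% in set A, and just outside it, those of 61 nt had 69.2%. Across the 759 short exons, length and mean inclusion share had a Spearman's rho of -0.02, so the shortest exons were not placed at either end. Most exons, 528, lay between 20% and 80% in both sets, whereas 61 were under 20% and 130 over 80% in both sets.

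Inclusion dominated in a varied group of genes. With exons that had a dim intensity left out (below), the 6 highest mean shares belonged to *Calm2*, *Raver1*, *Ndrg3*, *Gpsn2*, *Nrcam* and *Pclo*. In *Calm2*, which encodes calmodulin, the 31-nt exon had exclusion intensities of 154 and 138 in sets A and B and inclusion intensities of 5222 and 5780, for shares of 97.1% and 97.7%. In *Pclo*, which encodes the presynaptic scaffold Piccolo, the 27-nt exon had exclusion intensities of 96 and 112 and inclusion intensities of 2485 and 2369, for shares of 96.3% and 95.5%. The 57-nt exon of the adhesion molecule *Nrcam* had shares of 95.5% and 96.7%.

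Exclusion dominated in *Ube2d3*, *Bnip3l*, *Camk2b*, *Nsf*, *Cd47* and *Snrpn*. The 33-nt exon of *Camk2b*, a subunit of the calcium/calmodulin-dependent kinase of synapses, had exclusion intensities of 12137 and 12736 in sets A and B and inclusion intensities of 390 and 410, so that inclusion made up 3.11% and 3.12%. The 48-nt exon of *Nsf*, the ATPase that takes apart SNARE complexes, had shares of 3.86% and 3.90%. The 20-nt exon of *Snrpn*, a small ribonucleoprotein gene of neurons, had shares of 5.67% and 5.80%. The shortest exon, 12 nt in 0610037D15Rik, lay in the middle, with exclusion intensities of 155 and 161, inclusion intensities of 236 and 241 and shares of 60.4% and 59.95%. In share, the sets were close together in each of the exons named here and in the paragraph before. Shares near either end of the scale can hide differences in the ratio of inclusion to exclusion intensity. On the log2 scale, that ratio in set B over set A was 0.47 for the 57-nt exon of *Nrcam*, 0.30 for *Calm2* and -0.29 for *Pclo*. It was 0.003 for the 33-nt exon of *Camk2b*, 0.02 for *Nsf* and -0.02 for 0610037D15Rik.

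Over all short exons, shares in set A and set B ran closely together (Spearman's rho 0.984 and Pearson's r 0.986 over 759 exons, given as a description because both sets were read with the same probe sets). The median absolute difference between sets was 2.16 percentage points, and it was 2.16 points for cassette exons of 61 to 150 nt as well. A difference of 10 points or more was found in 16 short exons (2.11%). The same held for 2.35% of all cassette exons with 1 length and 2.01% of all events with an exclusion path, so the share was near the background.

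**Figure D2:**
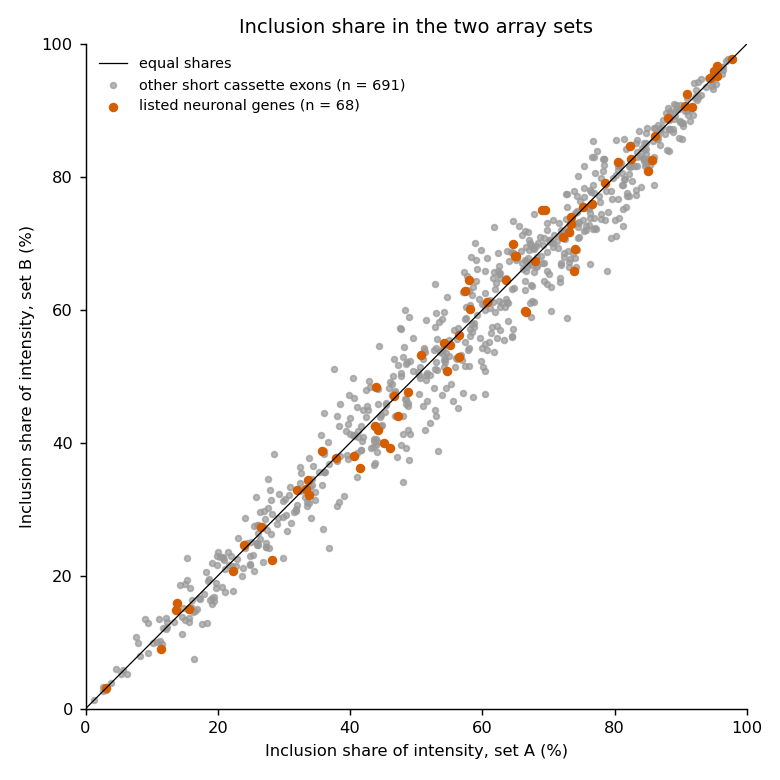
Inclusion share of the summed intensity in set B against that in set A, in percent, for each of 759 short cassette exons, with the 68 exons of listed neuronal genes in orange and the line of equal shares in black. Points span nearly the whole scale and lie close to the line.

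To compare the sets, the ratio of inclusion to exclusion intensity in set B was divided by that in set A and put on the log2 scale. A value above 0 means relatively more inclusion in set B, opposite in sign to the score of the table, which puts exclusion over inclusion. The median log2 ratio over short exons was -0.04 (quartiles -0.22 and 0.16), against -0.04 for cassette exons of 61 to 150 nt and -0.07 for those over 150 nt. Median log2 changes were 0.00 for the exclusion and -0.04 for the inclusion intensities. The median size of the log2 ratio without sign was 0.18.

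A log2 ratio over 0.5 in either direction, or 1.41-fold, was called past the fold, after the score threshold of the study. The study also set a limit on the false discovery rate, which was not applied here, so exons past the fold are not its calls. The fold was passed by 70 of 759 short exons (9.22%), beside 8.51% of all cassette exons with 1 length, 8.32% of those over 60 nt and 7.24% of all events with an exclusion path. The ratio was higher in set B for 26 short exons (3.43%), beside 2.97% of all cassette exons, 2.85% of those over 60 nt and 2.72% of all events. It was lower for 44 (5.80%), beside 5.54%, 5.47% and 4.51%. These shares were near the background in both directions. The split by direction depended on where 0 was set: with the median of all cassette exons, -0.04, subtracted, 33 were higher and 27 lower. Adding 50 to each intensity left 28 past the fold, 13 higher and 15 lower.

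Brightness went with the count. An intensity was called dim when it was under the 10th percentile of its column, which was 91 and 94 for exclusion and 111 and 115 for inclusion in sets A and B. At least 1 dim intensity was present in 143 short exons, of which 14.0% were past the fold, and 8.12% of the other 616 were. The exons were also ordered by the intensity summed over both paths and both sets. Past the fold were 13.8% of the dimmest 253, 9.09% of the middle 253 and 4.74% of the brightest 253. The part of brightness in single calls was not tested.

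In 54 of the 70 exons past the fold, the exclusion intensity moved further than the inclusion intensity. The same was found in 264 of 318 past the fold among all cassette exons with 1 length. It was found in 210 of 248 among those over 60 nt and in 660 of 909 among all events with an exclusion path. This was thus not particular to short exons. Where the ratio was higher in set B, the median exclusion intensity went from 260.5 (set A) to 199.0 (set B). Where it was lower, the median went from 195.5 to 244.0. Both groups were formed by the ratio, which contains the exclusion intensity, so these directions largely follow from the selection.

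**Figure D3:**
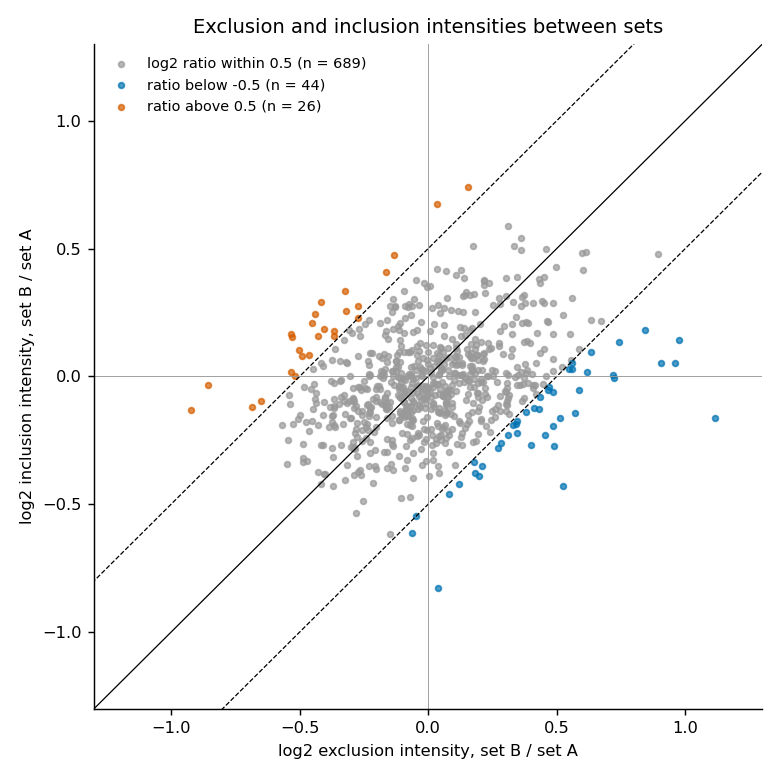
Log2 of the inclusion intensity in set B over set A against log2 of the exclusion intensity in set B over set A, for 759 short cassette exons. The solid line marks equal change and the dashed lines a log2 ratio of 0.5 either way, with 26 exons above the upper line in orange and 44 below the lower line in blue.

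The highest ratios among exons without a dim intensity were found in *Clasp1*, *Tial1*, *Mfap5*, AI316807, *Upp2*, D430041B17Rik, *Prpf38b*, *Fasl*, *Kirrel3* and *Usf2*. The 48-nt exon of *Clasp1*, whose product holds the growing ends of microtubules, had exclusion intensities of 239 in set A and 132 in set B, while inclusion was 787 and 769. Its share was 76.7% and 85.3%, and its log2 ratio of 0.82 was the highest of all short exons. The neighbouring 27-nt exon of *Clasp1* had shares of 54.4% and 52.6% and a log2 ratio of -0.11, so the same gene held exons on either side of 0.

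The 60-nt exon of *Tial1*, an RNA-binding regulator of splicing and translation, had exclusion intensities of 345 and 182, inclusion intensities of 208 and 190 and a log2 ratio of 0.79. Inclusion of *Usf2*, a transcription factor, was brighter in set B (1225 and 1463) and exclusion dimmer (1276 and 1021) at its 47-nt exon, for a log2 ratio of 0.58. The 36-nt exon of *Kirrel3*, an adhesion molecule of synapses, had exclusion intensities of 292 and 217, inclusion intensities of 953 and 1063 and a log2 ratio of 0.59. In the 46-nt exon of *Fasl*, the ligand of the Fas death receptor, inclusion moved further, from 213 in set A to 356 in set B. In all of these exons but that of *Fasl*, the exclusion path differed more between sets than the inclusion path.

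The lowest ratios were found in *Wdr76*, *Usp40*, *Esr2*, *Dtna*, *Srp72*, *Mta1*, *Aph1a*, *Ptpru*, *Tada3l* and BC024814. The 48-nt exon of *Wdr76*, which encodes a WD-repeat protein, had exclusion intensities of 443 in set A and 861 in set B, with inclusion at 1184 and 1227. Its share was 72.8% and 58.8%, the log2 ratio was -0.91, and the event lies at chr2:121343513-121345174. At the 58-nt exon of *Usp40*, a ubiquitin-specific protease, exclusion was nearly equal (850 and 873) and inclusion was 495 and 279, for a log2 ratio of -0.87. *Usp40* was the only one of these 10 exons in which inclusion moved further than exclusion.

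The 54-nt exon of the oestrogen receptor gene *Esr2* had exclusion intensities of 126 and 248 and inclusion intensities of 116 and 128, close to the dim limits, and a log2 ratio of -0.83. For *Dtna*, a dystrobrevin of the dystrophin complex, the 49-nt exon had exclusion intensities of 514 and 722, inclusion intensities of 783 and 649 and a log2 ratio of -0.76. The 35-nt exon of *Aph1a*, a subunit of gamma-secretase, had exclusion intensities of 1326 and 1854, inclusion intensities of 1270 and 1111 and a log2 ratio of -0.68. The 32-nt exon of *Srp72*, a part of the signal recognition particle, had nearly equal inclusion (1446 and 1439), with exclusion at 235 and 388. The largest ratio of all belonged to a dim exon, 59 nt in *Pnpla6*, a neuronal phospholipase gene, at -1.28, with exclusion at 614 and 1330 and inclusion at 121 and 108.

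**Figure D4:**
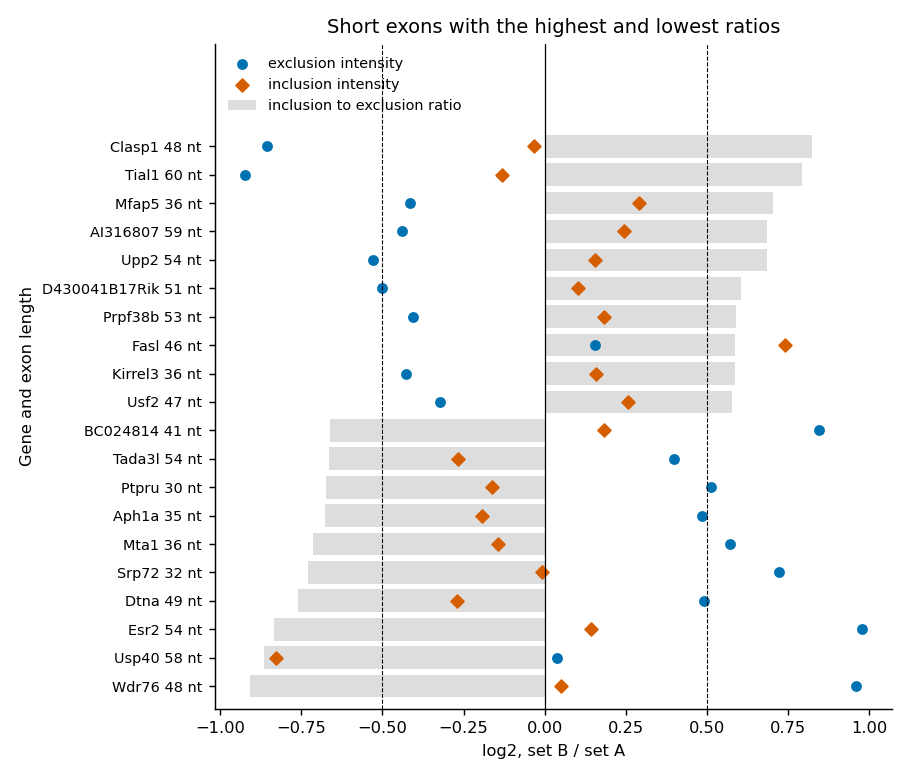
Log2 of set B over set A for the 10 highest and 10 lowest short exons without a dim intensity, with grey bars for the inclusion to exclusion ratio, blue circles for the exclusion intensity and orange diamonds for the inclusion intensity. Dashed lines mark a log2 ratio of 0.5 either way, and the circles lie farther from 0 than the diamonds in all but *Fasl* and *Usp40*.

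Length and reading frame were then set against the ratio. Past the fold were 1 of 52 exons of 12 to 27 nt (1.92%), 17 of 200 from 28 to 39 nt (8.50%), 30 of 249 from 40 to 51 nt (12.05%) and 22 of 258 from 52 to 60 nt (8.53%). The exon of at most 27 nt was that of *Antxr1*, an anthrax toxin receptor, with 26 nt, exclusion intensities of 160 and 124, inclusion intensities of 231 and 258 and a log2 ratio of 0.53. None of the 46 exons of exactly 27 nt was past the fold, and their median size of the log2 ratio was 0.13, beside 0.18 for all cassette exons. Past the fold were 8.51% of all cassette exons with 1 length and 7.24% of all events. The 27-nt exons had a median summed intensity of 878 in set A and 21.7% were dim, against 854 and 18.8% of all short exons. Several of them belong to the neuronal list below, and whether length itself played a part was not tested.

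Of exons whose length was a multiple of 3, 35 of 496 (7.06%) were past the fold, and of the others 35 of 263 (13.3%). Dim intensities were present in 16.3% of the former and 23.6% of the latter. Without dim exons the counts were 26 of 415 (6.27%) and 24 of 201 (11.9%). Within these 3 classes of summed intensity they were 13.2% and 14.9% in the dimmest, 6.59% and 14.0% in the middle, and 1.76% and 10.8% in the brightest class. In cassette exons over 60 nt the same shares were 7.77% and 8.88%. This is a count of exons in 1 pair of pooled sets, and the difference was not tested.

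Of 114 genes listed for short exons of the neuronal splicing program, 46 held 68 members. These exons were 88.2% multiples of 3, with a median share of 59.4% in set A and 60.7% in set B. The median log2 ratio was 0.01 and its median size without sign was 0.14. Past the fold was 1 of the 68 (1.47%), beside 9.99% of the 691 short exons of other genes and 8.51% of all cassette exons. The listed exons were also brighter, with a median summed intensity of 1722.5 in set A against 807.0 in the others. In the brightest class by intensity summed over both sets, 0 of 46 listed and 12 of 207 other exons (5.80%) were past the fold. In the middle class these were 1 of 15 (6.67%) and 22 of 238 (9.24%), and in the dimmest 0 of 7 and 35 of 246 (14.2%). The listed exons in the lower 2 classes are few, and the part of brightness was not tested.

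Synaptic adhesion genes held many of them. Neurexins are presynaptic receptors whose short exons alter the binding of partners. *Nrxn3* had a 27-nt exon with exclusion intensities of 2543 and 2296 in sets A and B, inclusion intensities of 1287 and 1201 and shares of 33.6% and 34.3%. *Nrxn2* had a 24-nt exon with shares of 54.6% and 50.8% and a 27-nt exon with shares of 80.5% and 82.2%. The log2 ratios of these 3 exons ran from -0.22 to 0.17.

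Neuroligins, the postsynaptic partners of neurexins, differed among themselves in level. The 60-nt exon of *Nlgn1* had shares of 33.8% and 32.1%, that of *Nlgn3* had 26.5% and 27.4%, and the 51-nt exon of *Nlgn2* had 82.3% and 84.6%. Receptor tyrosine phosphatases of the LAR family, which bind synaptic partners through short inserts, each held a 27-nt exon. Exclusion intensities were 620 and 630 and inclusion intensities 1880 and 1934 in *Ptprd*, for shares of 75.2% and 75.4%. In *Ptprs* the shares were 60.7% and 61.2%, and in *Ptprf* 41.5% and 36.2%, where inclusion was 639 and 508 with exclusion nearly equal at 900 and 894.

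Other adhesion genes were *Ncam1*, whose 30-nt exon had exclusion intensities of 2226 and 2016, inclusion intensities of 3091 and 3042 and shares of 58.1% and 60.1%, and *Nrcam*, whose 30-nt exon had shares of 55.1% and 54.7%. Of the 28 exons in 20 genes of the adhesion and axon guidance list, 0 were higher and 1 was lower past the fold (3.57%, beside 8.51% of all cassette exons). That exon was 30 nt in *Ptpru*, a receptor phosphatase, with exclusion at 227 and 324, inclusion at 540 and 483 and a log2 ratio of -0.67. The other exons of this list lay within the fold. *Kirrel3*, described above, is not on the list.

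The only exon of the neuronal list past the fold was that of *Unc13b*, one of the Munc13 proteins that prime synaptic vesicles. Its 57-nt exon had exclusion intensities of 319 and 447 and inclusion intensities of 901 and 863, for shares of 73.9% and 65.9% and a log2 ratio of -0.55. Its 36-nt exon differed in the other direction, with shares of 69.6% and 75.1% and a log2 ratio of 0.40. Clathrin light chains carry known neuronal inserts: shares were 56.4% and 53.0% for the 36-nt and 74.1% and 69.2% for the 54-nt exon of *Clta*, and 65.0% and 68.2% for the 54-nt exon of *Cltb*. Of 18 exons in 15 genes of vesicles, endocytosis and membrane traffic, 1 was higher and 1 lower past the fold. Together these were 11.1%, beside 8.51% of all cassette exons. The higher one was 39 nt in *Osbpl9*, which encodes an oxysterol-binding-like protein, with exclusion at 669 and 416, inclusion at 606 and 558 and a log2 ratio of 0.57.

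Channels, transporters and receptors held 13 members in 10 genes, none past the fold (0%, beside 8.51% of all cassette exons). The 45-nt exon of *Itpr1*, the intracellular calcium release channel, had exclusion intensities of 4275 and 4756, inclusion intensities of 3095 and 3289 and shares of 42.0% and 40.9%. Its 48-nt exon had shares of 73.2% and 66.5% and a log2 ratio of -0.46, just within the fold. The 27-nt exon of *Cacna1d*, a calcium channel, had shares of 85.1% and 81.0% but was dim in exclusion at 66 and 68.

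Kinase, phosphatase and GTPase regulator genes held 17 members in 13 genes, with 1 past the fold (5.88%, beside 8.51% of all cassette exons). It was the 31-nt exon of *Ppp1r12a*, a myosin phosphatase subunit, at 0.66, with a dim inclusion of 100 in set A and 126 in set B. The paralogous kinases of the *Camk2* family held members at very different levels. Shares were 36.1% and 35.6% for the 33-nt exon of *Camk2a*, 73.4% and 72.9% for that of *Camk2g* and 3.11% and 3.12% for that of *Camk2b*, whose 45-nt exon had 73.4% and 74.0%. The log2 ratios of these 4 exons lay between -0.04 and 0.05. *Camk2d* had a 42-nt exon at 0.04 and a 60-nt exon at -0.20, with shares of 91.7% and 90.5% for the latter.

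Cytoskeleton and motor genes held 26 members in 15 genes. Among them, the exon of *Clasp1* described above was the only one past the fold (3.85%, beside 8.51% of all cassette exons). The 27-nt exon of *Kif1a*, a kinesin that carries synaptic vesicle precursors, had exclusion intensities of 504 and 501, inclusion intensities of 1311 and 1221 and shares of 72.2% and 70.9%. In *Ank3*, which encodes the ankyrin of axon initial segments, shares were 33.3% and 33.1% for the 27-nt exon and 24.0% and 24.7% for the 33-nt exon. The spectrin gene listed as Spna2 had a 60-nt exon with shares of 86.1% and 86.2%. The scaffold gene *Dlg1* had a 36-nt exon with shares of 68.95% and 75.04% and a log2 ratio of 0.44.

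Genes of RNA processing, translation and transcription held 14 members in 11 genes, with 1 past the fold (7.14%, beside 8.51% of all cassette exons). The one past the fold was the 36-nt exon of *Mta1*, a subunit of the NuRD complex, with exclusion at 113 and 168, inclusion at 457 and 414 and a log2 ratio of -0.71. Several splicing regulators held short exons of their own. The gene listed as A2bp1, now *Rbfox1*, had a 53-nt exon with exclusion intensities of 5713 and 6291, inclusion intensities of 3913 and 3850 and shares of 40.7% and 38.0%, beside a 54-nt exon with shares of 90.6% and 90.7%. In *Mbnl2* shares were 85.6% and 82.6% for the 36-nt and 82.4% and 82.7% for the 54-nt exon, and in *Mbnl1* 45.2% and 39.9% for the 54-nt exon. For the paralogues *Ptbp1* and *Ptbp2*, the 31-nt exon had shares of 52.8% and 44.97% and the 34-nt exon 94.5% and 94.8%.

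**Figure D5:**
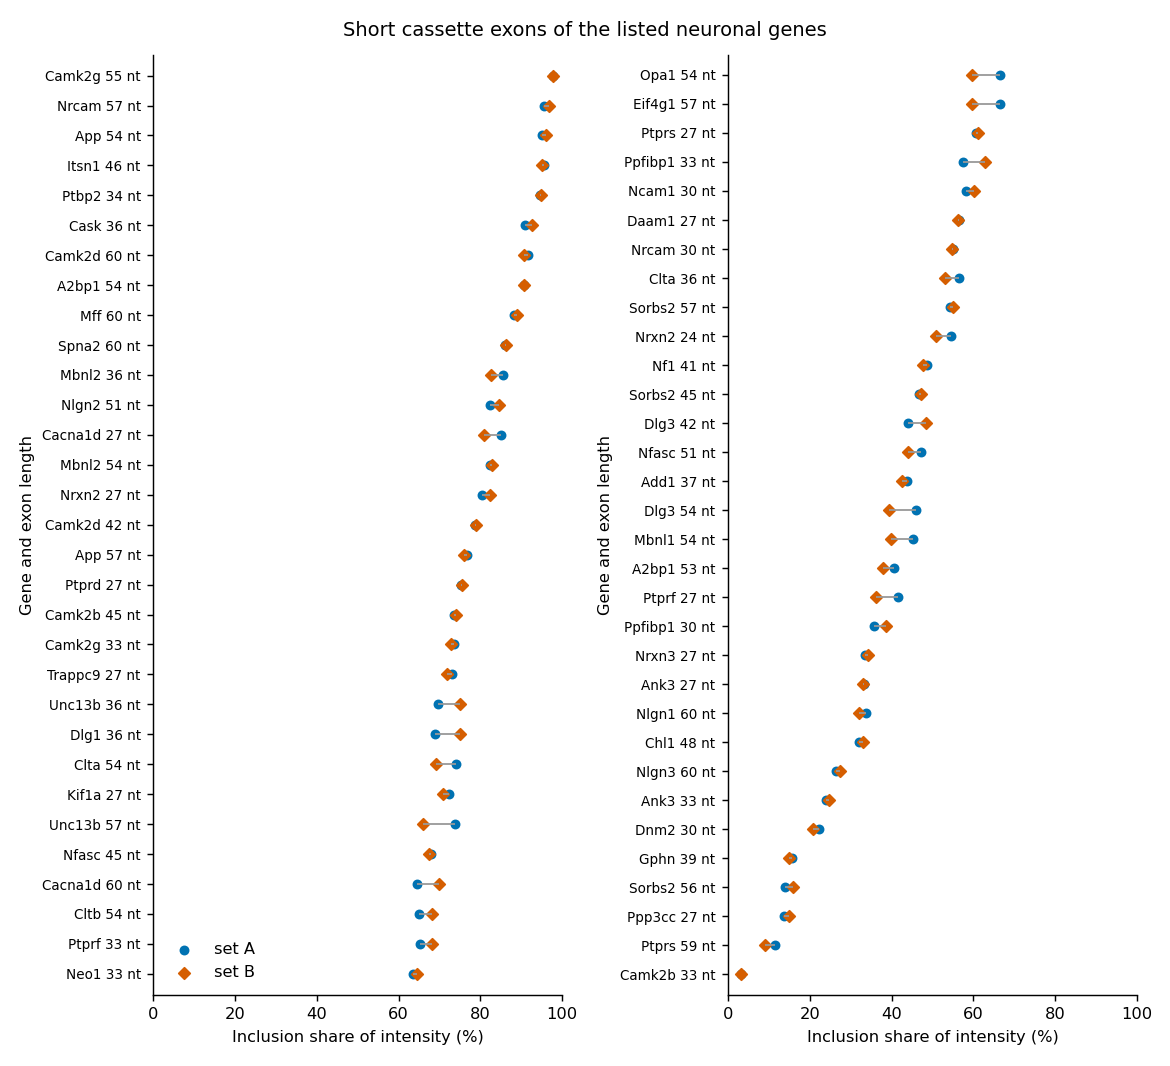
Inclusion share of the summed intensity, in percent, for 63 of the 68 short exons of listed neuronal genes, ordered by mean share, with set A as blue circles and set B as orange diamonds. Levels run from 3.11% in *Camk2b* to 97.7% in *Camk2g*, while the symbols of a given exon stay close together, and the 57-nt exon of *Unc13b* is the only one past the fold. The *Camk2g* exon at the upper end, of 55 nt, has dim exclusion intensities of 65 and 58 in sets A and B.

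Several short exons could belong to 1 gene: 67 genes held 141 of the members, 61 of them with 2, 5 with 3 and 1 with 4. Exons of the same gene were measured in the same RNA, and their mean shares still differed by a median of 24.6 percentage points. In 22 of the 67 genes the range was over 40 points. The widest was in *Cd47*, an integrin-associated surface protein, whose 33-nt exon had shares of 84.4% and 85.2% and whose 45-nt exon had 5.40% and 5.27%, a range of 79.4 points. These exons may overlap in the transcripts they are read from, and their probe sets differ.

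*Sorbs2*, an adaptor of actin and focal adhesions, held exons of 45, 56 and 57 nt with shares of 46.7%, 13.8% and 54.2% in set A and ratios from 0.03 to 0.24.

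In *Plcb4*, a phospholipase C, shares in set A were 22.7%, 25.3% and 86.8% for exons of 36, 37 and 57 nt. The adhesion receptor *Lphn3* had 24.9%, 76.9% and 34.3% for exons of 27, 31 and 39 nt. No exon of *Sorbs2*, *Plcb4* or *Lphn3* was past the fold.

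Between the outermost events of *Fkbp2* and *Stx3* on chromosome 19, a stretch from 7053631 to 11866235 within the CAST segment, the table held 70 events, of which 4 were short exons. None was past the fold, beside 8.51% of all cassette exons. The 45-nt exon of the kinase gene *Mark2* had exclusion intensities of 98 and 106, inclusion intensities of 571 and 476 and a log2 ratio of -0.38, and its 27-nt exon had 627 and 495, 247 and 205, and 0.07. The 46-nt exon of *Stx3*, a syntaxin of membrane fusion, had exclusion at 429 and 399, inclusion at 157 and 113 and a log2 ratio of -0.37. The 57-nt exon of *Ms4a7*, a microglial membrane protein gene, was dim, with a log2 ratio of -0.32. Inclusion was dimmer in set B for all 4, and the median log2 change of inclusion over all short exons was -0.04. Exclusion was also dimmer in set B for the 27-nt exon of *Mark2* and for *Stx3*, and brighter for the 45-nt exon of *Mark2*. For its own array calls in the CAST segment, the paper names probe mismatch or allelic differences independent of *Nxf1* as likely. Its gel assays found differences between the congenic groups in *Fkbp2*, *Ganab*, *Stx3* and *Tmem138*. These events did not differ significantly between edited and unedited *Nxf1* alleles in its genome-edited mice, and the paper reads them as strain variation in each gene. Whether its *Stx3* event was this 46-nt exon was not checked. Neither explanation was tested here.

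The tissue was checked against marker genes with an event in the table, each entered by its brightest event. Of 7 neuronal markers 4 had one, with summed intensities of 3215 to 20035 in set A and 2993 to 19107 in set B, and of 5 oligodendrocyte markers 3 had one, at 3588 to 13379 and 3272 to 12454. Astrocyte markers (4 of 5) ran from 671 to 12338 and from 602 to 12506. The microglial marker (1 of 4) was at 733 and 731, near the median of all events in set A, 722. The endothelial ones (2 of 3) were at 741 to 1147 and 683 to 1038, at percentiles 51.25 to 69.59 of all events in set A. None of 5 markers of other tissues had an event, so RNA of other tissues could not be checked. In bulk RNA, fewer cells of a type and less RNA per cell cannot be told apart.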

How the data were processed

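Total RNA from brain was hybridized by the authors to 6 Affymetrix MJAY arrays, 1 per animal. The submitters' processing notes name Affymetrix Power Tools, with no version. Background correction, normalization, probe filters and genome assembly are not given in the sources used here. The authors deposited exclusion and inclusion intensities as whole numbers, pooled over the arrays of each set, for a paired and a standard comparison. The deposited separation scores (log2) and q-values hold the authors' own comparison and were not used.

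The table holds 26514 lines under 13002 event names. The 2 paths of an event mirror each other and the paired and standard comparisons list equal intensities for members, so 1 path was read. For 754 members 2 lines were found and for 6 another number. Where lines of a name lay on several chromosomes, those on the chromosome that RefSeq gives for the gene were taken, and *Srrm1* and *Msr1* lay only elsewhere and are uncertain. *Mknk1* had 2 loci, of which the brighter was taken. Symbols were current for 656 members, matched by synonym for 82 and unmatched for 22, against RefSeq (GRCm38.p6), whose coordinates were not used. Primer sequences are those listed by the study.

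Inclusion share, log2 ratios and medians were computed with Python 3.11.15, numpy 2.4.6, pandas 2.3.3 and scipy 1.17.1, and plots with matplotlib 3.10.9. The ratio step was tested on simulated data. Sets A and B were compared without a test, because values per array were not used. Named are the exons of the neuronal list, the 10 highest and 10 lowest log2 ratios and the 6 highest and 6 lowest shares among exons without a dim intensity, exons of at most 12 nt, genes with several members and members between *Fkbp2* and *Stx3*. Others (*Antxr1*, *Pnpla6*, *Osbpl9*, *Ppp1r12a*, *Itpr1*, *Camk2a*, *Ptbp1*) were chosen after their values were seen or from the role lists. Members and gene lists were chosen with earlier results of these data known. Alternatives were other folds, length limits, an offset of 50, centring, dim exons left out, the other path and comparison, and 1 event per gene. Some genes that this rule names are not reported here.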

Additional observations from a re-analysis of the deposited data

How the results depend on the processing

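Across 62 values recomputed under alternatives, 42 stayed near the reported value and 20 moved. A fold of 1.5 left 33 short exons past it, 14 higher and 19 lower in set B, and a fold of 2 left 1, with 0 higher and 1 lower. An offset of 50 left 28, 13 higher and 15 lower. Centring on all cassette exons left 60, of which 27 were lower, and put the median log2 ratio at 0.0063 in place of -0.0380, so its sign is not settled. With a limit of 27 nt, 1 exon was past the fold, 1 higher and 0 lower, the median log2 ratio was -0.0102, the median shares were 54.3% and 52.9%, and 94.2% of lengths were multiples of 3. With a limit of 51 nt, 28 were lower and 68.7% were multiples of 3. Without dim exons 50 were past the fold (18 higher, 32 lower), and with 1 event per gene 67. The other path, the standard comparison and leaving out events only on another chromosome, which was chosen after seeing the data, each gave 70. No paired analysis was possible because the table used here gives 1 pooled intensity per set and path, with no value per array, and for the same reason no animal could be left out. At least 1 dim intensity was present in 143 of the exons, where ratios rest on low signal.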
